A study of Mus musculus with 6 samples.

Results

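The genes of 9 enzymes and cofactors that write, copy and erase DNA methylation or write the Polycomb mark on histone H3 were followed in 3 cell populations that had been sorted out of the islets of adult mice. The members were chosen by symbol: Dnmt1, Uhrf1, Dnmt3a, Dnmt3b, Tet1, Tet2, Tet3, Ezh1 and Ezh2. All 9 were found among the 46959 genes of the deposited table, and 6 of them passed a filter on low values of at least 1 RPKM in at least 2 of 6 libraries (RPKM is a read count scaled to gene length and to the reads of the library). Tet1, Uhrf1 and Ezh2 did not pass it. The islets came from offspring of a cross of Ins1-H2b-mCherry mice, whose reporter is driven by an insulin gene, with Ucn3-eGFP mice, whose reporter is driven by the urocortin 3 gene. Cells with mCherry alone are called immature beta cells, cells with both colours mature beta cells, and cells with neither double negative cells. All 3 groups carry both transgenes, and their islets were kept overnight in medium with 5.5 mM glucose before trypsin dissociation. There were 2 libraries per population, each from a pool of 10 to 12 mice. Sex is labelled male in the libraries numbered 1 and female in those numbered 2, but the series describes its pools as females, so the sex of the pools is unresolved. The immature group is defined by the lack of the Ucn3-eGFP reporter, so the gate itself sets it apart.

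DNA methylation in mammals sits mainly on cytosines followed by guanine. DNMT3A and DNMT3B place it on unmodified sites, DNMT1 copies it onto the new strand after replication with the help of UHRF1, which recognises sites methylated on 1 strand, and the TET enzymes oxidise it on the way to removal. EZH1 and EZH2 are alternative catalytic subunits of Polycomb repressive complex 2 (PRC2), which places the repressive mark H3K27me3. In beta cells Dnmt3a is known for silencing immature metabolic genes after birth, and Ezh2 for restraining the cell cycle inhibitor locus Cdkn2a in young animals.

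The immature libraries were the shallowest, which matters for the low members. The steps of the RPKM values correspond to 2393841 and 3448926 reads in the immature libraries and to between 22063880 and 26824380 reads in the 4 others. These are effective library sizes, not totals of reads, if the authors applied normalization factors, while the reads given per gene do not depend on that. Summed RPKM of 8 beta cell markers was 57365 and 62986 in immature, 206869 and 222309 in mature and 1503 and 3217 in double negative libraries. Ins1 and Ucn3, whose reporters set the gates, are among the 8, so this order is not independent of the sort. Ins2 and Ins1 made up most of the sum, at means of 46972 and 12690 RPKM in immature cells. Taken singly, all 8 were higher in both immature than in both double negative libraries. The immature libraries also held other cells' markers. Summed RPKM of 9 immune markers was 1731 and 1811 in immature, 61.5 and 61.9 in mature and 48.8 and 51.1 in double negative libraries, and all 9 were above both other groups. For 8 endothelial markers the sums were 493 and 494, 3.87 and 2.94, and 122 and 128 in the same order, again with all 8 above both other groups. For 6 mesenchymal markers they were 136 and 95.6, 0.395 and 0.469, and 20.5 and 25.7, also with all 6 above both other groups, and for 6 acinar markers 8452 and 26626, 169 and 117, and 241 and 2003. For 5 alpha cell markers the sums were 29134 and 19833 in immature, 660 and 866 in mature, and 178045 and 171611 in double negative libraries. No marker of these 5 lists was at 0 in both mature libraries, though some came close, such as Ptprc at 0 and 0.0061 RPKM and Tyrobp at 0.15 and 0. Summed delta, PP and glial markers were also higher in immature than in mature libraries. For 5 ductal markers the sums went the other way, at 442 and 454 (immature), 813 and 887 (mature) and 721 and 747 (double negative). The part of these other cells in the results below was not tested. In sorted bulk RNA, fewer cells of a type and less RNA per cell cannot be told apart.

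Most members were highest in the immature libraries. Both immature libraries were above both mature libraries for 9 of 9 members, where 60% of all 13367 tested genes had that order. Both were above all 4 other libraries for 8 of 9 members, with Tet1 the exception, where the share was 42.4% of tested genes and 30.5% of every gene above 0 in any library. Both immature libraries were above both double negative ones for 8 of 9 members (59.1% of tested genes). Both mature libraries were above both double negative ones for 2 members, Ezh1 and Dnmt1 (35.5% of tested genes), and below them for 4, Uhrf1, Dnmt3a, Dnmt3b and Tet1 (49.4%). These counts were not tested, and they include Uhrf1, Tet1 and Ezh2, which are not among the tested genes behind the shares. The 6 tested members had a median log2 difference of 0.92 between immature and mature cells, against 0.29 for all tested genes. By limma's test 5 of these 6 rose in immature cells, none fell, and Ezh1 did not pass. Of all tested genes 65.3% passed in either direction and 49.8% passed as higher in immature cells. The direction of that whole set rests on the scaling: of the genes called, 76.2% were higher in immature cells with the deposited values, 91.2% with TPM, 45.2% after median-ratio rescaling and 36.8% after quantile normalization. The count of members called is therefore read beside these shares, and each difference below beside the median of all genes.

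**Figure D1:**
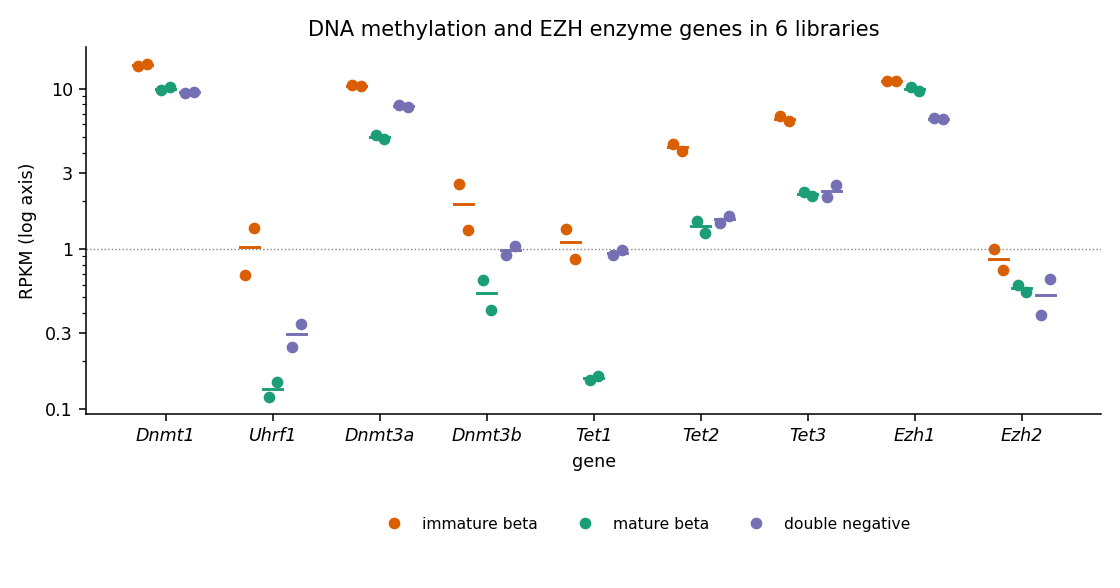
RPKM on a log axis (vertical) of the 9 genes (horizontal) in each of the 6 libraries, with 2 points per sorted population, a bar at the group mean and a dotted line at the filter of 1 RPKM. Tet2 and Tet3 are highest in immature cells, Ezh1 is near 10 in both beta cell groups, and Tet1 is lowest in mature cells, at 0.152 and 0.162 RPKM.

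Dnmt1 (ENSMUSG00000004099.16, chromosome 9, 20907209 to 20959888, minus strand, GRCm38), the copying methyltransferase, was the most abundant member in immature and double negative cells per length. Its RPKM was 13.8 and 14.3 (immature), 9.78 and 10.2 (mature), then 9.49 and 9.56 (double negative). The immature pair lay above all others, and the mature and double negative pairs were close. Dnmt1 rose in immature cells by 0.45 on the log2(RPKM + 1) scale against mature cells (SE 0.06, limma adjusted p = 0.00107) and by 0.52 against double negative cells (SE 0.06, limma adjusted p = 0.000914). The first difference is 0.17 above the median of all genes, and it did not pass after median-ratio rescaling (0.045, limma adjusted p = 0.582) or quantile normalization (0.13, limma adjusted p = 0.126). Mature and double negative cells differed by 0.064, with a 95% interval from -0.083 to 0.21 (limma adjusted p = 0.411).

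Uhrf1 (ENSMUSG00000001228.14, chromosome 17, 56303321 to 56323486, plus strand, GRCm38), the partner that brings DNMT1 to newly replicated sites, was far lower. It measured 0.687 and 1.36 RPKM (immature), 0.119 and 0.149 (mature) and 0.245 and 0.341 (double negative). These values rest on 7 and 20, 12 and 17, and 23 and 33 reads. The 3 pairs did not overlap, in the order immature, double negative, mature, yet the 95% Poisson interval of the first immature library ran from 0.276 to 1.41 RPKM and took in the higher double negative value. Because Uhrf1 did not pass the filter, it was tested on the recovered whole reads with limma's voom, a version chosen after seeing the data, in which 60.1% of 10365 genes passed between immature and mature, 49.5% between immature and double negative and 68.9% between mature and double negative cells. There Uhrf1 rose by 2.94 in immature against mature cells (SE 0.43, voom adjusted p = 5.86e-05) and by 1.85 against double negative cells (SE 0.39, voom adjusted p = 0.00148), and it fell by 1.09 from double negative to mature cells (SE 0.37, voom adjusted p = 0.0188). On the log2(RPKM + 1) scale without a filter the same 3 differences were 0.82, 0.63 and -0.19, and only that against mature cells passed (limma adjusted p = 0.0244, 0.0598 and 0.556). Its paralog Uhrf2 was 7.56 to 15.9 times as high as Uhrf1 per length in the immature libraries and 37.3 to 49.1 times in the mature ones.

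The RefSeq promoter windows of these genes (GRCm38.p6, 250 bases before to 50 after a start) were searched on both strands for 4 E2F-type motifs, TTTCCCGC, TTTGGCGC, TTTCGCGC and TTTGCCGC, since Dnmt1, Uhrf1 and Ezh2 are known targets of E2F factors, the transcription factors of S phase entry. Of the 9 members, 3 had a match, Dnmt1, Uhrf1 and Ezh2, where 2.605% of 27025 genes and 2.26% of 32851 windows did. These 3 genes prompted the search, so their count beside that share is no test. Each motif contains a cytosine followed by guanine (CG), and the share was not matched for CG sites. The matched windows held 33, 33 and 31 CG sites, against a median of 7 over all windows. Dnmt1 and Uhrf1 also have windows with no match. The stretches before the start that hold the match are shown for Dnmt1 (chr9:20952795-20952873, minus strand) and Uhrf1 (chr17:56304088-56304175, plus strand). They are shown because the copying enzyme and its partner share the same letters, TTTCGCGC. These read along the gene in Uhrf1 and against it in Dnmt1. Capitals mark the match.
Dnmt1: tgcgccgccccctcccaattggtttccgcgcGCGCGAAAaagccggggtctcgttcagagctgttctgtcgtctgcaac
Uhrf1: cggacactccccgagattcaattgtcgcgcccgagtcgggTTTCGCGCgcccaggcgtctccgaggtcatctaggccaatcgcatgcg
Dnmt1 has a further match, TTTGGCGC, shortly after this start, and Ezh2 has the same letters just after its own. No match overlapped another, and a match is a description of letters, not of binding.

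Dnmt3a (ENSMUSG00000020661.15, chromosome 12, 3806007 to 3914443, plus strand, GRCm38), the main de novo methyltransferase of somatic cells, separated all 3 populations. It stood at 10.6 and 10.4 RPKM (immature), 5.18 and 4.89 (mature) and 7.99 and 7.68 (double negative), on between 422 and 2935 reads. No 2 groups overlapped, and mature cells were lowest. Dnmt3a was 0.93 higher in immature than in mature cells on the log2(RPKM + 1) scale (SE 0.07, limma adjusted p = 0.000101), and 0.55 lower in mature than in double negative cells (log2 difference -0.55, SE 0.07, limma adjusted p = 0.00101). Both calls held in all 17 alternatives run on them. Between mature and double negative cells 54.3% of all genes passed and 31.2% passed as lower in mature cells. Dnmt3a was 0.38 higher in immature than in double negative cells (SE 0.07, limma adjusted p = 0.0047), 0.14 above the median of all genes, and this call was lost after median-ratio rescaling (0.091, limma adjusted p = 0.273) and quantile normalization (0.064, limma adjusted p = 0.435).

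Dnmt3b (ENSMUSG00000027478.15, chromosome 2, 153649450 to 153687730, plus strand, GRCm38), the second de novo enzyme, known for its role in the embryo, was low in every library. It measured 2.54 and 1.31 RPKM (immature), 0.644 and 0.416 (mature) and 0.914 and 1.05 (double negative), and the immature values rest on 31 and 23 reads. The immature libraries differed from each other by more than the lower of them differed from the mature libraries. Dnmt3b rose by 0.90 in immature against mature cells (SE 0.21, limma adjusted p = 0.0115), a call lost without mature replicate 2 (0.80, limma adjusted p = 0.0731), and its sign turned under quantile normalization (-0.031, limma adjusted p = 0.915). It passed the filter only through the groups where it was high. The differences from double negative cells did not pass, at 0.53 for immature (95% interval -0.0012 to 1.06, limma adjusted p = 0.0817) and -0.38 for mature cells (95% interval -0.91 to 0.15, limma adjusted p = 0.189). The first of these passed without immature replicate 2 (0.84, limma adjusted p = 0.00242), and the second passed when either immature library was left out, at limma adjusted p = 0.0168 without replicate 1 and 0.0172 without replicate 2. Both passed in voom on whole reads, at 0.84 and -0.93.

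Ratios taken within a library cancel any factor common to all its genes, as in median-ratio or TPM rescaling, but not quantile normalization, under which they were not computed. Those given here were chosen after the values were seen. Per length, the 3 DNMT genes summed to 27 and 26 RPKM (immature), 15.6 and 15.5 (mature) and 18.4 and 18.3 (double negative). Dnmt1 held 51.3% and 55% of that sum in immature, 62.7% and 65.8% in mature and 51.6% and 52.3% in double negative libraries. Dnmt3a held 39.3% and 40%, 33.2% and 31.5%, and 43.4% and 42%. The mature libraries thus had the largest share of the copying enzyme and the smallest of Dnmt3a, apart from both other groups. The ratio of Dnmt1 to Dnmt3a was 1.31 and 1.38 in immature, 1.89 and 2.09 in mature and 1.19 and 1.24 in double negative libraries. Groups of 2 libraries allow no test by permutation that could pass, so the ratios are given as values.

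Tet2 (ENSMUSG00000040943.12, chromosome 3, 133463679 to 133545139, minus strand, GRCm38) and Tet3 (ENSMUSG00000034832.15, chromosome 6, 83362373 to 83459084, minus strand, GRCm38), the dioxygenases that turn methylcytosine into hydroxymethylcytosine, showed one pattern. Tet2 stood at 4.56 and 4.07 RPKM (immature), 1.51 and 1.27 (mature) and 1.46 and 1.61 (double negative). Tet3 stood at 6.78 and 6.27 RPKM (immature), 2.27 and 2.15 (mature) and 2.11 and 2.52 (double negative). For both genes the immature pair lay far above the rest, and the mature and double negative pairs overlapped. Both rest on at least 184 reads in every library. Tet2 rose in immature cells by 1.16 against mature (SE 0.10, limma adjusted p = 0.000235) and by 1.07 against double negative cells (SE 0.10, limma adjusted p = 0.000484). Tet3 rose by 1.23 (SE 0.10, limma adjusted p = 0.000149) and by 1.18 (SE 0.10, limma adjusted p = 0.00027). Between immature and double negative cells 56.6% of all genes passed and 45.9% passed as higher in immature cells. These 4 calls held in every alternative that tested them, 16 for Tet2 and 17 for Tet3, with differences from mature cells between 0.42 and 1.66 for Tet2 and between 0.60 and 1.69 for Tet3.

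Mature and double negative cells differed by -0.086 in Tet2 (95% interval -0.34 to 0.17, limma adjusted p = 0.521) and by -0.044 in Tet3 (95% interval -0.29 to 0.20, limma adjusted p = 0.734). The ratio of Tet3 to Tet2 stayed between 1.45 and 1.70 in all 6 libraries and did not separate immature from mature, or mature from double negative, libraries. Against Dnmt1 in the same library, Tet3 was 0.490 and 0.438 in immature, 0.232 and 0.211 in mature and 0.223 and 0.264 in double negative libraries, so the immature pair also stood apart on a ratio that cancels a factor per library. The immune markers, including Ctss at 274 and 302 RPKM (immature) against 0.248 and 0.275 (mature), were highest in the same 2 libraries, and their part in the Tet2 and Tet3 differences was not tested.

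Tet1 (ENSMUSG00000047146.17, chromosome 10, 62804570 to 62908996, minus strand, GRCm38), the family member best known from embryonic stem cells and germ cells, had another pattern. It measured 1.33 and 0.867 RPKM (immature), 0.152 and 0.162 (mature) and 0.912 and 0.981 (double negative). The mature pair lay below all 4 other libraries, and the immature and double negative libraries overlapped. The mean in mature cells was 0.166 of that in double negative cells. Tet1 did not pass the filter and did not give whole reads with the annotation used, so the only test available was that on log2(RPKM + 1) with no filter, where 37.6% of 25803 genes passed between immature and mature and 26.6% between mature and double negative cells. Tet1 differed by 0.85 between immature and mature (SE 0.13, limma adjusted p = 0.00914), by -0.75 between mature and double negative (SE 0.13, limma adjusted p = 0.0176) and by 0.10 between immature and double negative cells (95% interval -0.25 to 0.45, limma adjusted p = 0.607). This scale understates the change of so low a gene. Tet1 made up 10.5% and 7.74% of the summed TET values in immature, 3.87% and 4.53% in mature and 20.3% and 19.2% in double negative libraries, and these 3 pairs did not overlap.

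The last 150 bases before the RefSeq start of each TET gene are shown with the CG sites in capitals, because the 3 genes differed in the density of those sites. TET enzymes act on such sites where the cytosine is methylated. The stretches are chr10:62887325-62887474 for Tet1, chr3:133544391-133544540 for Tet2 and chr6:83441679-83441828 for Tet3, all on the minus strand of GRCm38.p6.
Tet1: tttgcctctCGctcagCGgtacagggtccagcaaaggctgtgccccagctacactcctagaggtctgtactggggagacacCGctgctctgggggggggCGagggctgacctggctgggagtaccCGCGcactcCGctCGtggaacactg
Tet2: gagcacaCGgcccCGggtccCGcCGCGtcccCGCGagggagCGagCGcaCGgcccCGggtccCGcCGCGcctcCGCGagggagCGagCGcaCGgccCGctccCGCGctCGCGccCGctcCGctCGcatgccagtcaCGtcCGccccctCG
Tet3: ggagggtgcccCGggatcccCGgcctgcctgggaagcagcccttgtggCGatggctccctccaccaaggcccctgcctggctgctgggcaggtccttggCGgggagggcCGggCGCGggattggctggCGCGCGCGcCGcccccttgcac
The stretches hold 8, 30 and 12 CG sites. Over the full windows of 300 bases the counts were 17 for Tet1, 57 for Tet2 and 22 for Tet3, against a median of 7 over all windows, and 99.9% of windows had no more than Tet2. The data hold no methylation measurement, so the state of these sites is not known here.

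**Figure D2:**
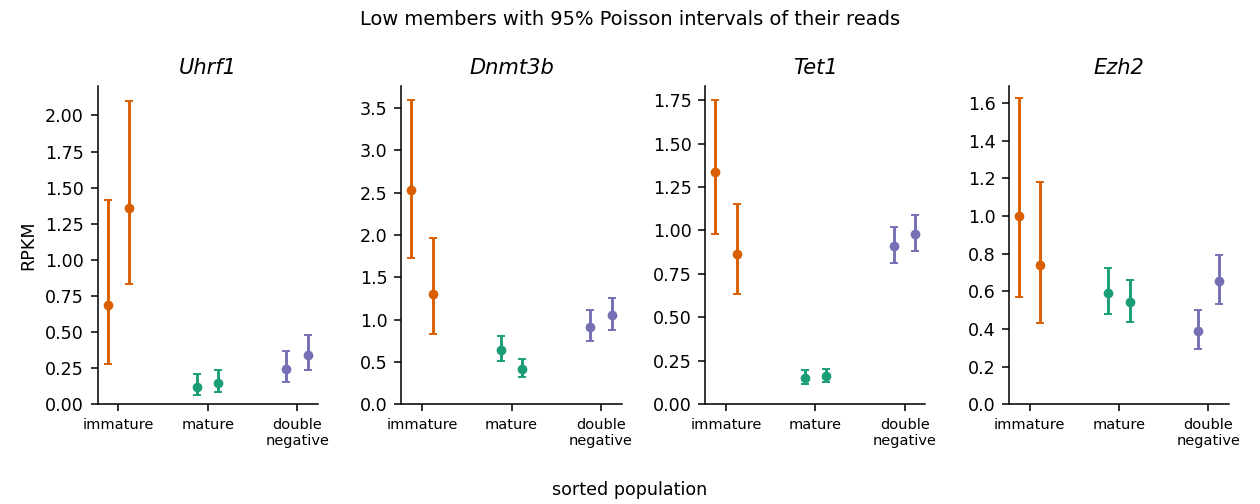
RPKM (vertical, linear axis from 0) of Uhrf1, Dnmt3b, Tet1 and Ezh2 in each library of the 3 sorted populations (horizontal), with 95% Poisson intervals of the reads behind each value, which cover counting error only. Tet1 did not give whole reads, so its intervals rest on rounded estimates of the reads and are approximate. The immature intervals are the widest, the mature values of Tet1 lie apart from all others, and the intervals of Ezh2 overlap between immature and mature cells.

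Ezh1 (ENSMUSG00000006920.14, chromosome 11, 101191115 to 101226463, minus strand, GRCm38), the PRC2 catalytic subunit typical of resting cells, was higher in both beta cell groups than in double negative cells. It stood at 11.2 and 11.1 RPKM (immature), 10.2 and 9.74 (mature) and 6.55 and 6.47 (double negative), on between 200 and 1943 reads. The beta cell libraries did not overlap the double negative ones, and the immature pair lay slightly above the mature pair. Ezh1 was 0.55 higher in mature (SE 0.06, limma adjusted p = 0.000753) and 0.70 higher in immature than in double negative cells (SE 0.06, limma adjusted p = 0.00035), and both calls held in all 17 alternatives. Of all genes 23.1% passed as higher in mature than in double negative cells. Immature and mature cells differed by 0.15, 0.14 below the median of all genes (95% interval -0.0033 to 0.30, limma adjusted p = 0.0776). That sign turned after median-ratio rescaling (-0.26) and quantile normalization (-0.20), where it passed, while with TPM it was 0.47 and passed.

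Ezh2 (ENSMUSG00000029687.16, chromosome 6, 47530139 to 47595341, minus strand, GRCm38), the catalytic subunit typical of dividing cells, was low everywhere. It measured 1 and 0.738 RPKM (immature), 0.593 and 0.541 (mature) and 0.387 and 0.652 (double negative), on 16 and 17 reads in the immature libraries. The immature values were the highest, and the double negative pair spanned both mature values. With voom on whole reads Ezh2 differed by 0.61 between immature and mature (SE 0.35, 95% interval -0.16 to 1.37, voom adjusted p = 0.156), by 0.77 between immature and double negative (95% interval -0.0091 to 1.55, voom adjusted p = 0.0945) and by 0.16 between mature and double negative cells (95% interval -0.32 to 0.65, voom adjusted p = 0.535). None of these differences passed. The Poisson intervals of the double negative pair did not overlap, at 0.293 to 0.501 and 0.53 to 0.794 RPKM. Whether depth or the spread between libraries limits detection was not tested. Per length Ezh1 was 11.2 and 15.1 times as high as Ezh2 in immature, 17.3 and 18 times in mature and 16.9 and 9.93 times in double negative libraries.

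Dnmt3a and Ezh1, a methyltransferase of each kind, moved apart. The ratio of Dnmt3a to Ezh1 was 0.943 and 0.933 in immature, 0.505 and 0.502 in mature and 1.22 and 1.19 in double negative libraries. Replicates of a population lay closer to each other than to any library of another, and the 3 populations did not overlap on this ratio of deposited values. Dnmt3a alone already separated them, and both ratios given here were chosen after the values were seen. How many other pairs of genes separate the populations was not counted, so the lack of overlap is a description, not a test. Relative to Ezh1, Tet3 was 0.604 and 0.563 in immature, 0.222 and 0.221 in mature and 0.323 and 0.389 in double negative libraries, again with no overlap.

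**Figure D3:**
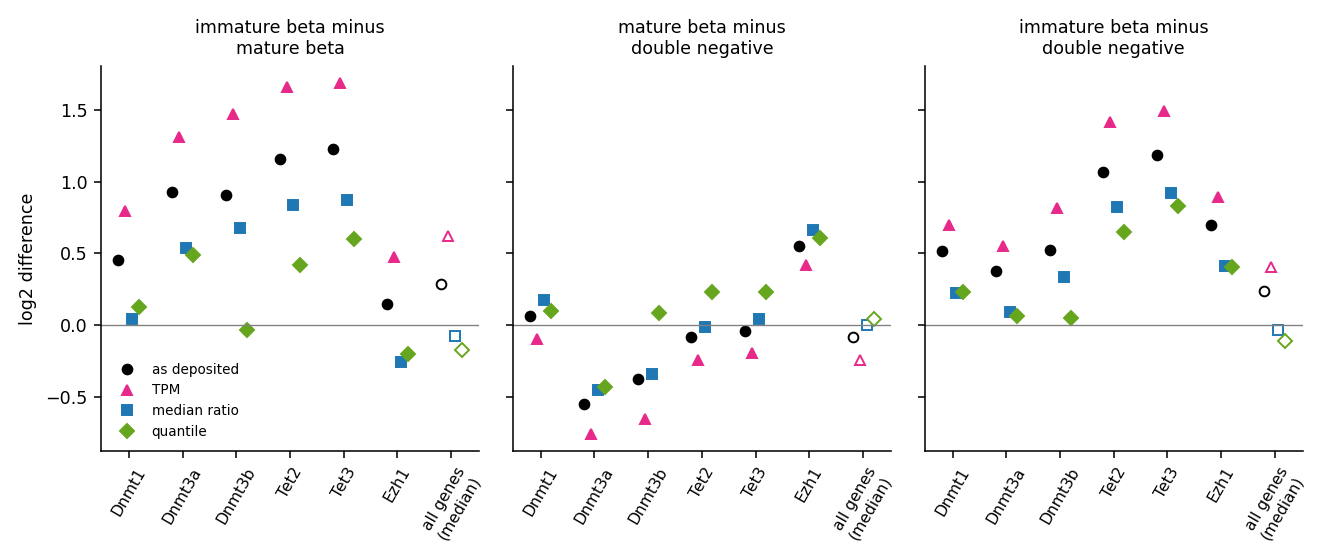
Log2 differences (vertical) of the 6 tested members and, as open symbols, the median of all tested genes (horizontal), for the 3 comparisons and 4 scalings of the libraries. Dnmt3a, Tet2 and Tet3 are above 0 between immature and mature cells in each scaling, whereas Ezh1 lies between -0.26 and 0.47 there and is above 0 in each scaling against double negative cells.

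By a measure of likeness over the 6 libraries, the root mean square difference of the centred log2(RPKM + 1) profile among 11580 protein-coding genes, Dnmt1 was closest to Zfp414 (0.0112), Mrto4 (0.0264) and Sumf2 (0.0304). Dnmt3a was closest to Snrk (0.0332), Lrch3 (0.0332) and Timm21 (0.0381), and Dnmt3b to Rpl13 (0.0718), Setdb2 (0.0789) and Ap4e1 (0.0858). The profile of Tet2 was closest to those of Tec (0.0316), Kcna3 (0.0474) and Atad2 (0.049), and that of Tet3 to Frmd4a (0.0276), Hmga1 (0.0406) and Ccr2 (0.0474). Tec, Kcna3 and Ccr2 are known from blood cells, and Kcna3 and Ccr2 are listed at a mean of 0 RPKM in mature cells. The other neighbours of Tet2 and Tet3, Atad2, Frmd4a and Hmga1, had means of 1.88, 1.99 and 2.98 RPKM there. With 1 RPKM added, profiles can be near yet differ in fold. Kcna3 averaged 1.19 RPKM in immature and 0 in mature cells, against 4.31 and 1.39 for Tet2. The part of blood cells in these profiles was not tested. Close to Ezh1 were Slc20a2 (0.0343) and Araf (0.0353). Such neighbours are not rare, since 390 genes lay within 0.1 of Dnmt1, 218 of Dnmt3a, 160 of Ezh1, 58 of Tet2, 48 of Tet3 and 13 of Dnmt3b.

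The partners of EZH1 and EZH2 were mostly higher in immature than in mature cells. Of 11 PRC2 partner genes 9 were tested. Of these 8 rose in immature against mature cells, none fell and 1 did not pass, where 49.8% of all tested genes passed as higher. The partners had a median of 0.64 against 0.29 for all genes. Mtf2, an accessory subunit that brings PRC2 to CG-rich DNA, rose most, by 1.30 (SE 0.12), from 2.08 to 6.55 RPKM, followed by Phf1, a related accessory subunit, by 0.80. The core subunit genes Eed and Suz12 rose by 0.67 and 0.64, to 16.6 and 16.4 RPKM, and Jarid2, a cofactor that helps recruit the complex, by 0.66, with its sign turning under quantile normalization (-0.067). The rise of Suz12 did not pass after median-ratio rescaling (0.22, limma adjusted p = 0.0633). Median-ratio rescaling left 5 of the 9 genes called, 4 higher and 1 lower. Against double negative cells 5 PRC2 partner genes fell in mature cells and none rose, with 2 called without mature replicate 2 and 2 without double negative replicate 2. That count was 8 with TPM and 3 under quantile normalization, none of them higher.

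PRC1 is the second Polycomb complex and ubiquitinates histone H2A. Of its 22 genes 20 were tested, 10 rose in immature against mature cells, 2 fell and 8 did not pass, with a median of 0.24 against 0.29 for all genes, and 7 were called without mature replicate 1. Over all tested genes 49.8% passed as higher and 15.5% as lower in immature cells, and the counts in PRC1 are near these shares. Cbx8, a chromodomain subunit, fell by 0.76, a call lost without mature replicate 1 (-0.71, limma adjusted p = 0.059). Cbx7, a related subunit, rose by 0.87, from 4.15 to 8.45 RPKM, and Pcgf3, a subunit of variant complexes, by 0.75, which did not pass under quantile normalization (0.21, limma adjusted p = 0.0533). Among genes of the ubiquitin ligase core, Bmi1 and Rnf2 did not pass. Bmi1 had means of 17.4 (immature) and 16.2 RPKM (mature) (0.095, limma adjusted p = 0.353). Rnf2 had means of 10.8 and 11.8 RPKM (-0.12, limma adjusted p = 0.17). Ring1 and Pcgf2 of this core passed as higher, by 0.20 (limma adjusted p = 0.0435) and 0.66 (limma adjusted p = 0.000351). The rise of Ring1 is below the median of all genes. Bmi1 changed sign under median-ratio and quantile scaling, and Rnf2 under TPM.

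Among genes that read methylated sites or repair oxidised ones, 17 of 19 were tested, 11 rose in immature against mature cells, 1 fell and 5 did not pass, with a median of 0.36. This count rests on the mature libraries, with 5 called without mature replicate 1 and 7 without mature replicate 2. The median of all tested genes was 0.29, and 49.8% of them passed as higher in immature cells. After median-ratio rescaling 4 genes of this list rose and 3 fell, and under quantile normalization 5 rose and 2 fell. Gadd45b, a stress-inducible gene linked to DNA demethylation, rose by 1.36 (SE 0.06), from 8.98 to 24.6 RPKM, and Cxxc4, which binds unmethylated CG sites, by 0.86, which did not pass under quantile normalization (0.20, limma adjusted p = 0.0977). Uhrf2 rose by 0.79, from 5.69 to 10.6 RPKM. Tdg, the glycosylase that removes the oxidised bases made by TET enzymes, rose by 0.55 from 0.468 to 1.15 RPKM, a call lost without mature replicate 1 (0.50, limma adjusted p = 0.0784) and a sign that turned under quantile normalization (-0.44). Tdg passed the filter only through the immature libraries, where it is high. Apex1, a repair endonuclease, rose by 0.77, a call lost without immature replicate 1 (0.55, limma adjusted p = 0.0507), without mature replicate 1 (0.83, limma adjusted p = 0.0527) and without mature replicate 2 (0.71, limma adjusted p = 0.0823). Hells, a helper of methylation in heterochromatin, did not pass the filter, at 0.696 and 0.885 RPKM (immature), 0.234 and 0.264 (mature) and 0.327 and 0.348 (double negative).

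Of 8 genes that remove H3K27 methylation or H2A ubiquitin, 7 were tested, 5 rose in immature against mature cells, none fell and 2 did not pass, with 3 called without mature replicate 2. The median of these 7 genes was 0.42, against 0.29 for all tested genes, of which 49.8% passed as higher in immature cells. Asxl1 and Asxl2, cofactors of the BAP1 deubiquitinase, rose by 1.01 and 0.69, and Mysm1, another H2A deubiquitinase, by 0.98. The H3K27 demethylase gene Kdm6a rose by 0.42, lost without mature replicate 2 (0.41, limma adjusted p = 0.0512) and after median-ratio rescaling (0.023), and Kdm6b by 0.24, lost without either mature library (limma adjusted p = 0.0937 and 0.0976) and below 0 under median-ratio and quantile scaling. Methyl donor genes did not share a direction: of 12 genes 11 were tested, 3 rose, 2 fell and 6 did not pass (median 0.12), and 3 were called without either mature replicate 1 or mature replicate 2. The scaling turned the balance, with 1 rising and 7 falling after median-ratio rescaling and 8 rising and 1 falling with TPM. Mat2a, which makes the donor S-adenosylmethionine, stood at 43 and 40.1 RPKM (immature), 28.8 and 24.3 (mature) and 6.87 and 8.66 (double negative). It rose by 0.63 in immature against mature cells, which did not pass after median-ratio rescaling (0.20, limma adjusted p = 0.158). Mtr, methionine synthase, rose by 0.85, which did not pass under quantile normalization (0.31, limma adjusted p = 0.0757), and Shmt2, which feeds the folate cycle, fell by 0.83, from 87.3 to 48.8 RPKM. Gnmt, which consumes the donor, fell by 0.84 (limma adjusted p = 0.0316), a call lost when either mature or either double negative library was left out (limma adjusted p between 0.0669 and 0.143).

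**Figure D4:**
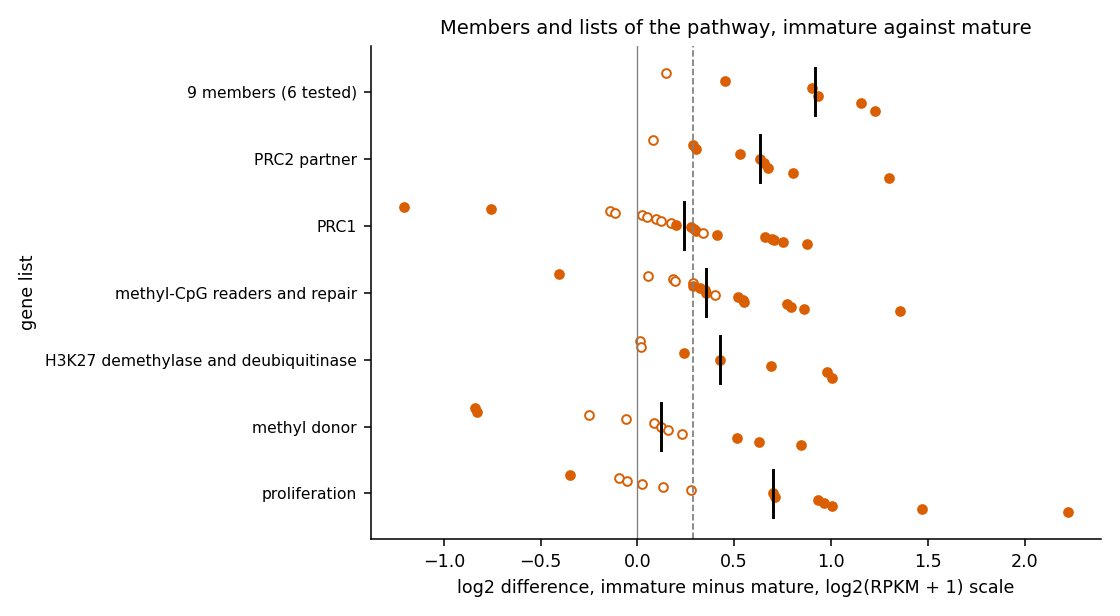
Log2 differences between immature and mature cells (horizontal, log2(RPKM + 1) scale) of the tested members and of each gene list (vertical), with filled points past the limma threshold, open points not, a black bar at each list's median and a dashed line at the median of all tested genes, 0.29. The medians of the members, 0.92, and of the PRC2 partners, 0.64, lie to the right of that line, and that of the methyl donor genes, 0.12, lies to its left.

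Of all tested genes, 31.2% passed as lower and 23.1% as higher in mature than in double negative cells, and the list counts are given beside these shares without a test. The lists did not share a direction in this comparison. Of the methyl donor genes 5 rose and 2 fell in mature cells, and of the proliferation genes 4 rose and 4 fell. Against double negative cells, 10 PRC1 genes fell and 2 rose in mature cells, with 7 called without either mature library. Of the methyl-CpG readers and repair genes 10 fell and 3 rose, with 4 and 8 called without mature replicates 1 and 2 and 5 and 8 without double negative replicates 1 and 2. Of the H3K27 and H2A erasers 4 fell and 2 rose, with 3 called without either mature library and 2 without double negative replicate 2. Between immature and double negative cells 45.9% of all tested genes passed as higher and 10.6% as lower in immature cells. Of the methyl donor genes 7 rose and 1 fell there, and after median-ratio rescaling 2 rose and 1 fell. There 4 PRC2 partner genes rose and 1 fell, with 3 called without double negative replicate 1. In PRC1 7 rose and 4 fell, with 6 and 5 called without double negative replicates 1 and 2. Among readers and repair genes 8 rose and 2 fell, with 6 called without double negative replicate 1, and among the erasers 5 rose and none fell (2 rose and 1 fell after median-ratio rescaling). Of the proliferation genes 10 rose and none fell, with 6 called without double negative replicate 1.

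Of 24 proliferation genes 13 passed the filter, 7 rose in immature against mature cells, 1 fell and 5 did not pass, with a median of 0.70. Over all tested genes the median was 0.29, with 49.8% passing as higher and 15.5% as lower in immature cells. The count that rose is near that share, and it was not tested as a set. It includes Rrm2 and Cdkn2a, which passed the filter only through the immature libraries, so the filter partly sets their direction. Rrm2 measured 1.51 and 1.67 RPKM (immature), 0.548 and 0.646 (mature) and 0.409 and 0.381 (double negative). Both genes are also in the median and among the proliferation genes tested against double negative cells. The gene that fell was E2f1, an E2F factor gene, from 3.11 in mature to 2.23 RPKM in immature cells (-0.35, SE 0.11, limma adjusted p = 0.0332). The replication helicase subunit genes Mcm3 and Mcm6 rose by 2.22 and 1.47, and Mcm5 rose from 1.86 to 4.78 RPKM, with Mcm5 not passing under quantile normalization (0.31, limma adjusted p = 0.101). Mki67, the marker of cycling cells, did not pass the filter and measured 0.332 and 0.374 RPKM (immature), 0.121 and 0.196 (mature) and 0.279 and 0.314 (double negative). Cdkn2a, the cell cycle inhibitor locus that Polycomb complexes are known to repress, measured 1.07 and 2.72 RPKM (immature), 0.396 and 0.445 (mature) and 0.58 and 0.563 (double negative). Cdkn2a rose by 0.97 against mature cells (SE 0.27, limma adjusted p = 0.0203), a call lost without either mature library (limma adjusted p = 0.0868 and 0.0778) or either double negative library (0.0513 and 0.0512) and near 0 under quantile normalization (0.027). It passed the filter only through the immature libraries, where it is high.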

How the data were processed

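RNA sequencing of 6 libraries was deposited by the authors as RPKM values, 1 column per library, matched to samples by title. Per the submitters' processing notes, the tools were featureCounts, edgeR 3.14.0 and STAR 2.5, and the build GRCm38.p4. For the annotation release, filters and multi-mapping reads, nothing is given in the sources used here. RPKM falls for all genes where a hormone gene takes a large share of a library. Genes with at least 1 RPKM in at least 2 of 6 libraries (13367) entered limma 3.58.1 (R 4.3.3) as log2(RPKM + 1), with group means over all libraries, an intensity trend, 3 residual degrees of freedom and Benjamini-Hochberg adjustment at 0.05. Whether the pools were independent is not stated. The p-values therefore reflect the spread of these libraries alone, which may be technical. It was unequal, with an SD of the replicate difference of 0.393 (immature), 0.132 (mature) and 0.222 (double negative). The procedure was run on simulated data with the same noise beyond counting in every library, so that run does not cover this unequal spread.

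Reads were recovered from the RPKM steps and the exonic lengths of GENCODE M21 (GRCm38), which also gave gene coordinates. Within 0.02 reads, 78.1% to 83.8% of values under 200 reads were whole per library, and 19090 genes (77.9% of those above 0) were whole in all libraries, including 7 members but not Dnmt1 and Tet1. Poisson intervals cover counting error only. Promoter sequences are RefSeq's. Named genes were all members, up to 4 genes per list with the largest called difference between immature and mature cells, list genes in direct contact with a member, and the 3 nearest profiles per tested member. E2f1 was named besides, as the proliferation gene that fell. Ring1 and Pcgf2 were added as genes of the ubiquitin ligase core, and Rrm2 for how it passed the filter. A few genes that this rule names are not reported here. The members, the gene lists and the tests were chosen with earlier results of these data known. The alternatives were other pseudocounts, filters, scalings and variance models, a replicate block and each library left out.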

Additional observations from a re-analysis of the deposited data

How the results depend on the processing

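Of the member results under an alternative setting, 280 kept their direction and side of the threshold, or moved by less than the replicate spread, 9 changed sign, 10 came to pass the threshold, 5 no longer passed and 5 moved. The members called between immature and mature cells fell from 5 to 3 at a filter of 5 RPKM, which tests fewer members, and those between mature and double negative cells went from 2 to 4 with voom at 10 reads, which tests 7. Voom on whole reads, which tests 8958 genes, called 5603 genes between immature and mature and 4807 between immature and double negative cells, where limma called 8728 and 7563. With 1 library left out, genes called between mature and double negative cells ranged from 4767 to 8982 (7256 with all), the lowest without mature replicate 2. Signs turned between immature and mature cells under median-ratio rescaling for Ezh1 (-0.26), Bmi1 (-0.32) and Kdm6b (-0.18), and under quantile normalization for Ezh1 (-0.20), Dnmt3b (-0.031), Jarid2 (-0.067), Bmi1 (-0.16), Tdg (-0.44) and Kdm6b (-0.0052), and under TPM for Rnf2 (0.20). Between mature and double negative cells they turned for Dnmt1 under TPM (-0.099), for Dnmt3b (0.083), Tet2 (0.23) and Tet3 (0.23) under quantile normalization, and for Tet3 under median-ratio rescaling (0.043) and with 1 library left out (from -0.13 without double negative replicate 1 to 0.044 without double negative replicate 2). None of these mature against double negative differences passed in the main test. Beyond the rescaling itself, the cause was not tested. Likeness and ratios were computed with the deposited values only.

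The replicate number goes with the sex label in each group, and no label ties it to a shared pool or day. The deviations of same-numbered libraries correlated across genes at -0.0093, 0.14 and -0.11 between the groups. With the replicate block, which is also a block on the sex label, 8407, 6803 and 7073 genes and 5, 2 and 5 members were called in the 3 comparisons. Depth limits Uhrf1, Dnmt3b and Ezh2, which rest on 7 to 31 reads in the immature libraries.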
